A study of Homo sapiens with 6 samples.

Results

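The miR-200 family comprises 5 small RNAs that mark and maintain epithelial cells, namely miR-200a, miR-200b, miR-200c, miR-141 and miR-429. Its members on this array were found by name: every human probe named for 1 of the 5, on either strand or as a precursor, without a mismatch tag. This gave all 5 miRNAs, by 10 probes of the 2997 in the table, 5 for the mature guide strands, 4 for the opposite strands (written with an asterisk) and 1, hsa-mir-429-P, with a suffix taken to mean a precursor. HCT-116, an established human colorectal carcinoma cell line of epithelial origin, was transiently transfected with variant 2 of Uc283+a (a run of 9 T), with variant 1 (a run of 8 T) or with an empty vector, the mock. Uc283+a is an RNA copied from an ultraconserved region, a stretch of genome identical between distant mammals, and the study asked which miRNAs respond to it, with the processing of primary miRNA transcripts in view. Each of the 3 groups had 2 arrays, and all 6 arrays measured total RNA of the same line. Whether the 2 arrays of a group stem from independent cultures is stated in no label. The p-values below then measure only how far these samples scatter, and that scatter may be technical. How much Uc283+a the transfected cells held was not analysed here.

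Members of this family repress ZEB1 and ZEB2, transcription factors that switch off E-cadherin, and the ZEB factors in turn repress the genes of the family. This mutual repression holds cells in an epithelial or a mesenchymal state, and loss of the family is associated with invasion in colorectal cancer. As for most miRNAs, the hairpin is cut from its primary transcript by Drosha and DGCR8 in the nucleus and trimmed by Dicer in the cytoplasm.

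The family is made from 2 primary transcripts. In RefSeq on GRCh38.p14, MIR200B, MIR200A and MIR429 lie within 1984 bases on chromosome 1 (chr1:1167104-1169087), inside the noncoding gene MIR200BHG. MIR200C and MIR141 lie within 493 bases on chromosome 12 (chr12:6963699-6964191), inside MIR200CHG. The guide strands carry 2 seeds, the bases 2 to 8 that pair with targets, and these cut across the 2 clusters. The RefSeq sequences are shown because the seed divides the family and because near-identical strands may be read by each other's probes. The seed is in capitals. The letters of the array's own probes were not used here.
miR-200b: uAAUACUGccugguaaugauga
miR-200c: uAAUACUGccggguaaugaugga
miR-429: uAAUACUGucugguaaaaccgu
miR-200a: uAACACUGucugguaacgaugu
miR-141: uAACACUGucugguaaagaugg
The first 3 share the seed AAUACUG, whose match in a target is CAGUAUU, and the other 2 share AACACUG, matched by CAGUGUU. The seeds differ by U4C, counted from the 5′ end with the miR-200b base first. Within a seed group the strands are close: miR-200c differs from miR-200b by U11G and A22G over 22 compared positions, and miR-141 differs from miR-200a by C17A and U22G. In contrast, miR-429 differs from miR-200b at 6 of 22 positions.

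The study concerned the cutting of such hairpins, so those given in RefSeq are shown with the mature strands listed there in capitals.
MIR200B, chr1:1167104-1167198, plus strand: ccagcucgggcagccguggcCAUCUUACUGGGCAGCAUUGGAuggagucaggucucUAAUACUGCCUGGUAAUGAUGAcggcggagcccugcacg
MIR429, chr1:1169005-1169087, plus strand: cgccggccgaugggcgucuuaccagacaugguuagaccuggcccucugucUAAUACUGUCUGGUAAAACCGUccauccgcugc
MIR200C, chr12:6963699-6963766, plus strand: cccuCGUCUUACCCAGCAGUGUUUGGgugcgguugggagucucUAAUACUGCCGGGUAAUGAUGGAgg
MIR141, chr12:6964097-6964191, plus strand: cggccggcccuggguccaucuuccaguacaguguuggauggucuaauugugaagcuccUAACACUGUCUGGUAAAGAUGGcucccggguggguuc
In MIR200B and MIR200C the capitals mark the asterisk strand first and the guide strand second. RNA was labelled from random primers, so a mature-named probe could also read the longer RNAs that contain its strand.

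Signals are log2 values normalized by the authors, with array medians of 6.56 to 6.60. A probe is called above background on an array where it exceeds the level that 95% of the 38 random-sequence probes stay under, which lay between 6.75 and 7.27. By that measure 3 of the 10 family probes, hsa-miR-200b, hsa-miR-200c and hsa-miR-429, were above background on all 6 arrays. Another 4 were above it on 3 to 5 arrays, 2 on a single array and 1, hsa-miR-141*, on none. Of the 1773 tested probes (human miRNAs and ultraconserved regions), 389 were above it on every array. Mock replicate 1 and variant 2 replicate 2 stood apart from the other arrays: log2 differences over those 389 probes had an SD of 0.667 to 0.837 in pairs that held either of them, and of 0.463 to 0.576 in all other pairs. The 4 small nucleolar RNA (snoRNA) probes were lower in variant arrays than in mock by a mean of 0.55 on the log2 scale (-0.55), with single differences of -0.74 to -0.31. When arrays are shifted to equal snoRNA signal, the median difference of all tested probes moves to 0.54 for both variants together, 0.60 for variant 2 and 0.51 for variant 1, so differences below are relative to the array as a whole.

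**Figure D1:**
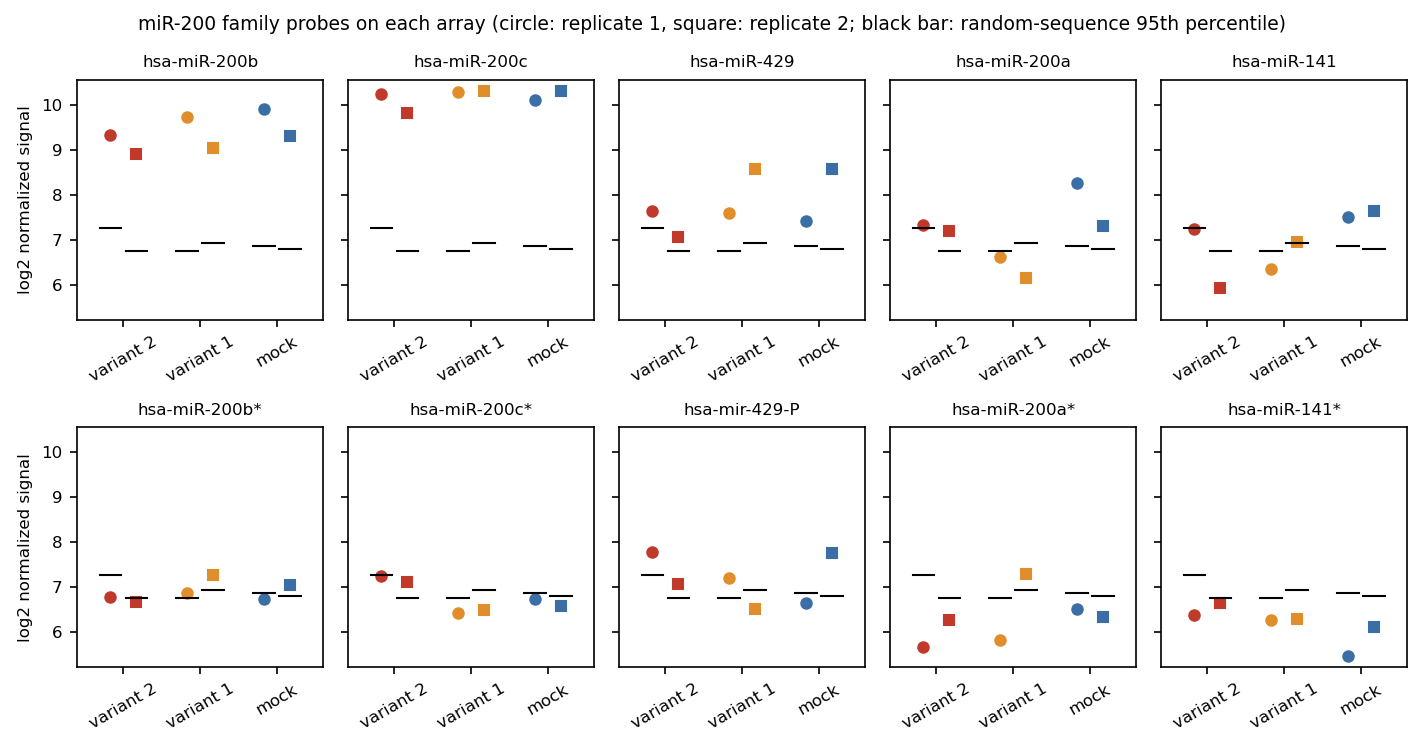
Log2 normalized signal of the 10 miR-200 family probes on the 2 arrays each of variant 2, variant 1 and mock (circle, replicate 1; square, replicate 2). Black bars mark the level that 95% of random-sequence probes stay under on that array; hsa-miR-200b, hsa-miR-200c and hsa-miR-429 lie above the bar on all 6 arrays, and hsa-miR-141* on none.

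The test, limma with Benjamini-Hochberg adjustment over all 1773 probes, called 0 probes (0%) at an adjusted p under 0.05 in any of the 4 comparisons, and therefore no member of the family. At an unadjusted p under 0.05 it gave 82 probes (4.62%) for both variants against mock, 73 (4.12%) for variant 1, 85 (4.79%) for variant 2 and 88 (4.96%) for variant 2 against variant 1. Intervals (95%) lay wholly below 0 for 2.43% of tested probes with both variants and 2.2% with variant 1. The comparisons with mock share the mock arrays, so their values stand side by side and are not independent.

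The 3 guide strands with the seed AAUACUG were those above background on all arrays, and none differed between groups past the threshold. The hsa-miR-200c probe read 10.25 and 9.83 in variant 2, 10.29 and 10.31 in variant 1, and 10.10 and 10.31 in mock. Its groups overlapped except that variant 2 lay below variant 1, as 17.9% of tested probes did, and the low value was variant 2 replicate 2. The difference from mock for both variants was -0.03 (SE 0.327, 95% interval -0.78 to 0.71, limma adjusted p 0.992), an interval that spans 0.584 to 1.64 times the mock signal. By group, variant 2 differed from mock by -0.16 (SE 0.378) and variant 1 by 0.10 (SE 0.378). The order of group means was variant 1 (10.30), mock (10.20) and variant 2 (10.04), and no neighbouring pair differed past the threshold.

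The hsa-miR-200b probe read 9.33 and 8.91 in variant 2, 9.74 and 9.05 in variant 1, and 9.91 and 9.31 in mock. Its group means were 9.12 in variant 2, 9.39 in variant 1 and 9.61 in mock, with each neighbouring step smaller than the SD of 0.486 between the variant 1 arrays. The difference was -0.36 for both variants (SE 0.375, 95% interval -1.21 to 0.50, limma adjusted p 0.976), -0.50 for variant 2 and -0.22 for variant 1, and each of these 3 turns positive when arrays are shifted to the snoRNA probes (0.19, 0.09 and 0.29). Without mock replicate 1 the variant 1 value was 0.08.

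For hsa-miR-429 the signals were 7.63 and 7.07 in variant 2, 7.60 and 8.57 in variant 1, and 7.42 and 8.58 in mock. The SD between replicates was 0.684 in variant 1 and 0.818 in mock, so the order of the means, variant 1 (8.09), mock (8.00) and variant 2 (7.36), holds no step beyond both. The difference from mock was -0.28 for both variants (SE 0.457, limma adjusted p 0.978), -0.65 for variant 2 and 0.08 for variant 1. It rested on which mock array was kept: with mock replicate 2 alone the variant 2 value was -1.23, and with mock replicate 1 alone it was -0.07.

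The guide strands with the seed AACACUG, hsa-miR-200a from the chromosome 1 cluster and hsa-miR-141 from the chromosome 12 cluster, had the lowest differences of the family for both variants against mock, and neither passed. In variant 2 alone hsa-miR-429 (-0.65) lay below hsa-miR-200a (-0.51), and without mock replicate 1 the both-variant value was -0.86 for hsa-miR-429 and -0.47 for hsa-miR-200a. The hsa-miR-200a probe read 7.33 and 7.21 in variant 2, 6.63 and 6.16 in variant 1, and 8.26 and 7.30 in mock. Both variant 1 arrays were below the random-sequence level and below all other arrays, while variant 2 overlapped mock. Of tested probes, 17.3% had variant 1 below mock without overlap, and 17.6% had variant 2 above variant 1. With the variant 1 arrays set at the random-sequence level, their mean was at least 1.91-fold below the mock mean (measured means 6.40 and 7.78). This bound allows for background alone and leaves out the scatter between arrays. The mock mean drew on mock replicate 1 (8.26), an array that stood apart, where the highest random-sequence probe read 8.21. The fitted interval reaches up to 0.77 times the mock signal, a smaller change than the bound. The fitted difference was -1.39 (SE 0.443, 95% interval -2.39 to -0.38, limma unadjusted p 0.0127, adjusted p 0.96). Its unadjusted p was number 17 of 1773 when ordered from the smallest. Leaving out 1 array moved this value between -1.87 and -0.90. Its sign could not change in this way, because the variant 1 and mock arrays do not overlap. The snoRNA shift gave -0.88.

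For variant 2, hsa-miR-200a differed from mock by -0.51 (SE 0.443, limma adjusted p 0.938). This value was -0.03 without mock replicate 1, and 0.07 after the snoRNA shift. With variant 1 set at the random-sequence level, the variant 2 mean was at least 1.34-fold above it, a bound that leaves out the scatter between arrays. The fitted difference was 0.87 (SE 0.443, limma adjusted p 0.924), and its 95% interval of -0.14 to 1.88 included 0.

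The hsa-miR-141 probe read 7.25 and 5.93 in variant 2, 6.35 and 6.95 in variant 1, and 7.51 and 7.65 in mock. All 4 variant arrays lay below both mock arrays, as did 6.71% of all tested probes, and only the mock arrays and variant 1 replicate 2 were above background. The difference was -0.96 for both variants (SE 0.434, 95% interval -1.95 to 0.03, limma unadjusted p 0.0549, adjusted p 0.975). After the snoRNA shift it was still below 0, at -0.42. It was -0.99 for variant 2 (SE 0.501) and -0.93 for variant 1 (SE 0.501). Neither variant 2 array was above background, replicate 1 by a small margin (7.25 against 7.27). With both set at that level, the variant 2 mean was at least 1.48-fold below the mock mean (measured means 6.59 and 7.58). This bound leaves out the scatter between arrays, and the 95% interval of the variant 2 difference, -2.13 to 0.15, included 0. Variant 2 replicate 2 held much of that difference: without this array it was -0.33, and without variant 2 replicate 1 it was -1.65. The variants differed from each other by -0.06 (SE 0.501, 95% interval -1.20 to 1.08).

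Set by seed, the both-variant differences were -0.96 and -0.95 for the AACACUG strands and -0.36, -0.28 and -0.03 for the AAUACUG strands. Set by cluster, they were -0.95, -0.36 and -0.28 on chromosome 1 and -0.96 and -0.03 on chromosome 12. The values of miR-141 and miR-200a differed by far less than their SEs (0.434 and 0.384), so their order is not resolved. The AACACUG probes were above background on 4 arrays (hsa-miR-200a) and 3 arrays (hsa-miR-141), the AAUACUG probes on all 6, and the part of this in the split by seed was not tested.

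The asterisk strands stayed near or under the random-sequence level, so they give signals but no fold. The hsa-miR-141* probe read 6.39 and 6.64 in variant 2, 6.28 and 6.29 in variant 1, and 5.47 and 6.11 in mock, none of them above background. Its 4 variant arrays lay above both mock arrays, as did 6.54% of tested probes, on the opposite side to the guide strand of the same hairpin (limma adjusted p 0.975). The hsa-miR-200c* probe read 7.25 and 7.11 in variant 2, 6.43 and 6.49 in variant 1, and 6.73 and 6.59 in mock, with only variant 2 replicate 2 above background. Here variant 2 lay above mock and variant 1 below it, without overlap. Taken singly, 16.4% of tested probes did the first and 17.3% the second.

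For hsa-miR-200a* the range was 5.68 to 6.27 in variant 2, 5.84 to 7.29 in variant 1 and 6.34 to 6.52 in mock, so variant 2 lay below mock without overlap and variant 1 spanned both. For hsa-miR-200b* it was 6.67 to 6.79 in variant 2, 6.88 to 7.27 in variant 1 and 6.73 to 7.04 in mock, so variant 2 lay below variant 1 without overlap and mock overlapped both variants. Of tested probes, variant 2 lay below mock without overlap for 17%, and below variant 1 for 17.9%.

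A precursor-named probe was available for miR-429 alone. The hsa-mir-429-P probe read 7.78 and 7.07 in variant 2, 7.20 and 6.53 in variant 1, and 6.66 and 7.76 in mock, above background on 4 of 6 arrays. Mock spanned nearly the full range, and the difference for both variants was -0.07 (SE 0.437, 95% interval -1.06 to 0.93, limma adjusted p 0.989). Between variants, the precursor-named probe differed by 0.56 (SE 0.504) and the mature-named probe by -0.73 (SE 0.528), variant 2 over variant 1, with 95% intervals of -0.58 to 1.71 and -1.93 to 0.47 that both include 0.

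**Figure D2:**
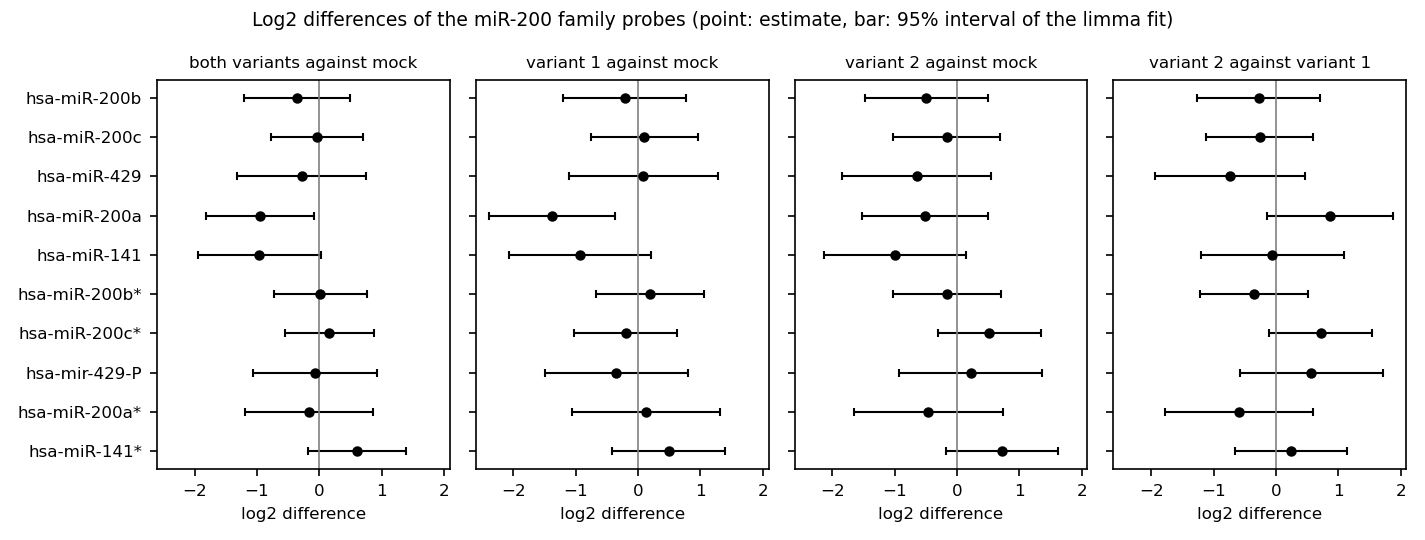
Log2 differences of the 10 family probes in the 4 comparisons (points) with 95% intervals of the limma fit (bars), positive where the group named first is higher. Among the 40 intervals, those of hsa-miR-200a exclude 0 for both variants (-1.82 to -0.08) and for variant 1 (-2.39 to -0.38), and no difference passed the adjusted threshold.

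As a list, 7 of the 10 family probes had differences below 0 for both variants against mock and their median was -0.11, beside 50.6% below 0 and a median of -0.01 over all tested probes. For variant 2 the list held 7 below 0 (median -0.31), against 48.7% of all probes (median 0.01). For variant 1 it held 5 (median -0.06), against 49.9% (median 0). For variant 2 against variant 1 it held 6 (median -0.16), against 49.5% (median 0.01). After the snoRNA shift the family medians were 0.43, 0.28 and 0.45 for both variants, variant 2 and variant 1, each below the median of all probes under that shift. Arrays did not overlap for 1 lower and 1 higher family probe with both variants, where 6.71% and 6.54% of tested probes did so. For variant 2 the counts were 2 lower and 2 higher (17% and 16.4% of all), for variant 1 they were 3 lower and 1 higher (17.3% and 16.5%), and for variant 2 against variant 1 they were 2 lower and 3 higher (17.9% and 17.6%). With 10 probes, each count lies within 2 probes of those shares. Variant 2 replicate 2 was the lowest array for 5 of the 10 probes and 4 of the 5 guide strands, and also for 3 of the 4 snoRNA probes. The part of that array and of the snoRNA shift in the variant 2 values was not tested.

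**Figure D3:**
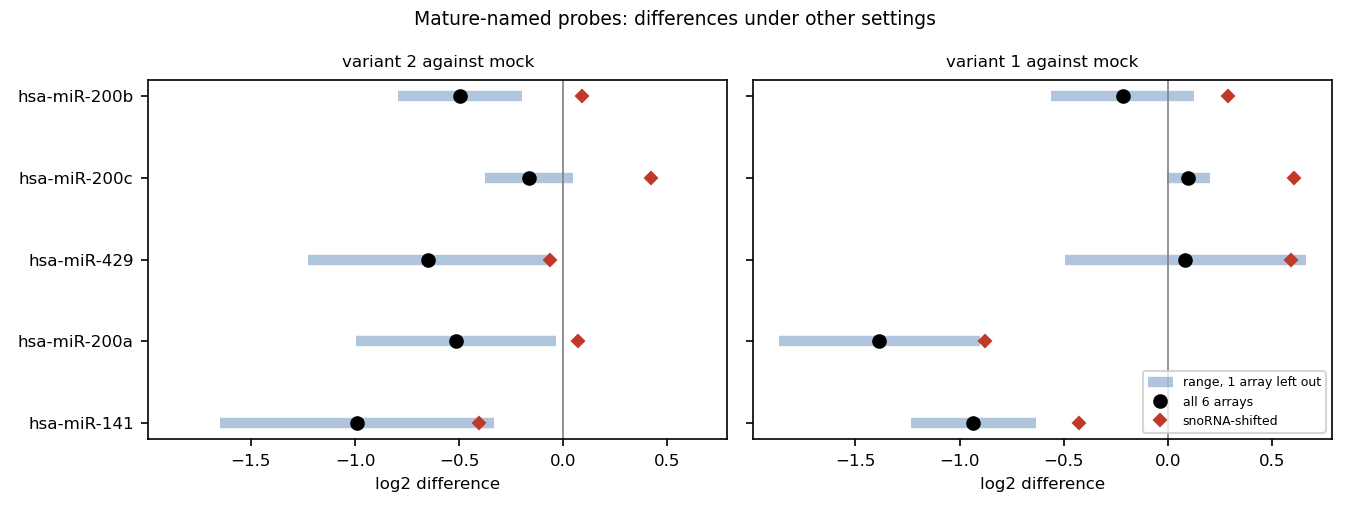
Log2 differences of the 5 guide-strand probes from mock for variant 2 (left) and variant 1 (right). Black points use all 6 arrays and blue bars span the values with 1 array left out. Red diamonds follow a shift of the arrays to equal snoRNA signal. For hsa-miR-200b, variant 2 has -0.50 with all arrays and 0.09 after the shift. For hsa-miR-200a, the variant 1 values lie below 0. Leaving out 1 array could not change that sign, because the variant 1 and mock arrays do not overlap.

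The array also carries 9 mouse-named probes of the same miRNAs, which the choice of members did not use and which give a second reading. The mouse-named miR-200c probe followed the human-named one closely, with signals of 10.33 and 9.67 in variant 2, 10.40 and 10.39 in variant 1, and 10.25 and 10.35 in mock. On each array the probes differed by -0.15 to 0.15. The low variant 2 replicate 2 value was thus seen with both probes.

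The mouse-named miR-200b probe read 8.82 and 8.59 in variant 2, 9.57 and 9.18 in variant 1, and 9.66 and 9.26 in mock, -0.51 to 0.13 from the human-named probe. With it, both variant 2 arrays were below both mock arrays, as were 16.6% of all probes of the table. The difference was -0.75 (SE 0.388, 95% interval -1.64 to 0.13, limma adjusted p 0.929 over the whole table) for variant 2 and -0.08 for variant 1. Against variant 1, both variant 2 arrays were lower with either mouse-named probe, as were 18% of all probes. Human-named and mouse-named probes, read on the same arrays, thus both gave variant 2 the lowest mean for miR-200b and miR-200c, and neither probe passed for either miRNA. For miR-200c the low mean came from variant 2 replicate 2. Its replicate 1 lay above the mock mean with the human-named probe (10.25 against 10.20) and the mouse-named probe (10.33 against 10.30).

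For the other guide strands, no mouse-named probe was above background on all arrays. The mouse-named miR-429 probe stayed between 6.25 and 6.55 and the mouse-named miR-141 probe between 6.26 and 6.54, above background on no array. The mouse-named miR-200a probe read 6.16 and 6.65 in variant 2, 6.97 and 6.61 in variant 1, and 7.20 and 6.03 in mock. It was above background on 2 arrays, mock replicate 1 and variant 1 replicate 1. On the latter array the human-named miR-200a probe was not above background. For variant 1 against mock the mouse-named miR-200a probe gave 0.17 (SE 0.480) where the human-named probe gave -1.39. The mouse-named miR-141 probe gave -0.04 (SE 0.317) for both variants where the human-named probe gave -0.96. The table holds 0 mismatch probes for the family.

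**Figure D4:**
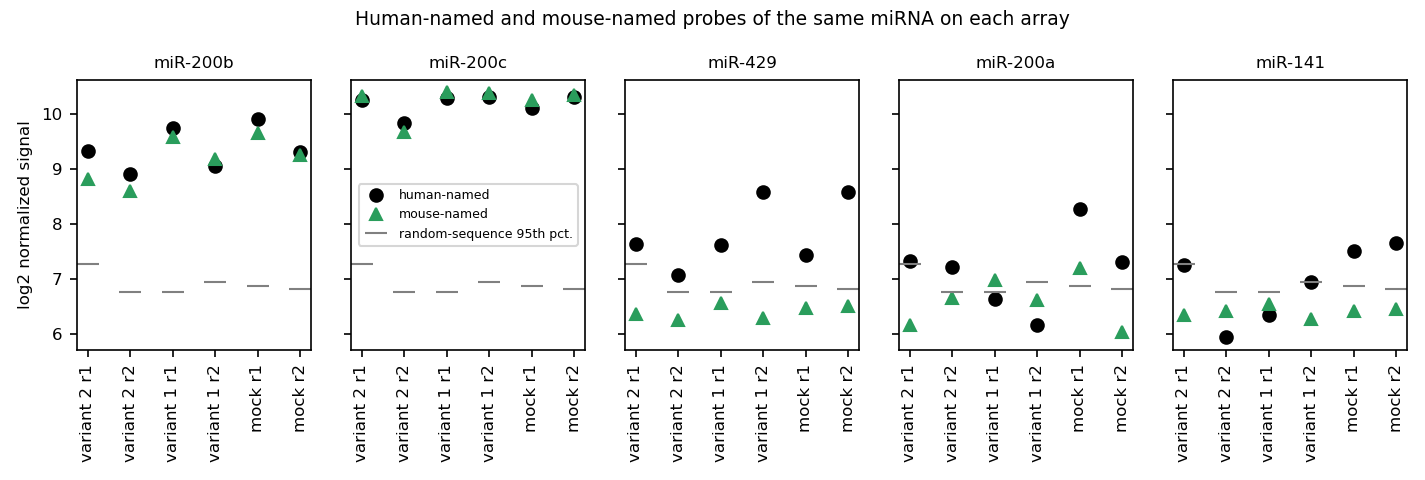
Log2 normalized signal of human-named (black circles) and mouse-named (green triangles) guide-strand probes on each array, with the level that 95% of random-sequence probes stay under (grey bars). The readings lie within 0.15 of each other for miR-200c and within 0.51 for miR-200b, while the mouse-named miR-429 and miR-141 probes stay under the grey bars on all 6 arrays.

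Probes whose signal followed a member above background most closely over the 6 arrays were sought among the 386 other tested probes above background. The closest to hsa-miR-200b were hsa-miR-182 (Pearson r 0.939), hsa-miR-222 (0.938) and hsa-miR-1273-P (0.925). Those closest to hsa-miR-200c were hsa-miR-1183 (0.985), hsa-miR-335* (0.981) and hsa-miR-4279 (0.949), all with their lowest signal in variant 2 replicate 2. Those closest to hsa-miR-429 were hsa-miR-320b (0.972), an ultraconserved-region probe (0.958) and hsa-miR-1250-P (0.941), again all lowest in variant 2 replicate 2. Of the 386 candidates, 4 had r above 0.9 with hsa-miR-200b, 10 with hsa-miR-200c and 7 with hsa-miR-429. These values describe 6 arrays that share their normalization, and family members were not among the candidates.

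Other miRNAs tied to the epithelial or mesenchymal state were described for comparison. The 25 probes of epithelial-associated miRNAs covered miR-205, miR-203, the miR-183, miR-96 and miR-182 cluster, miR-375, the miR-34 family and the intestinal miR-192, miR-194 and miR-215. Over all tested probes, 50.6% of the both-variant differences were below 0, with a median of -0.01. In the epithelial list the difference was above 0 for 15 and below 0 for 10 (median 0.09). None passed in limma, and the smallest unadjusted p belonged to hsa-miR-96* and hsa-miR-183, both under background on all arrays. The hsa-miR-183 probe read 6.15 and 5.88 in variant 2, 6.71 and 6.68 in variant 1, and 5.60 and 5.87 in mock. The 29 probes of mesenchymal- or invasion-associated miRNAs covered miR-10b, miR-9, miR-155, miR-21, miR-221, miR-222, miR-103, miR-107, miR-31, miR-143, miR-145, miR-199a, miR-199b and miR-214. Their difference was below 0 for 23 (79.3%, beside 50.6% of all tested probes) and above 0 for 6. The median of -0.23 turns positive under the snoRNA shift given above, and 0 passed in limma. In that list hsa-miR-21, an abundant oncogenic miRNA, read 10.33 and 10.15 in variant 2, 10.27 and 10.43 in variant 1, and 11.47 and 11.12 in mock, a difference of -1.0 (SE 0.324, limma adjusted p 0.975). Next by p was hsa-miR-155, a miRNA of immune and tumour cells, at 0.86 (SE 0.482), with mock replicate 1 at 6.77 and the other arrays at 7.98 to 8.68.

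Of the epithelial markers that check the label of HCT-116, 3 of the 10 family probes (hsa-miR-200b, hsa-miR-200c and hsa-miR-429) were above background on all arrays. So were 2 of 4 other epithelial probes, hsa-miR-203 and hsa-miR-205. The guide strands hsa-miR-200a and hsa-miR-141 were above it on 4 and 3 arrays. Among all 1773 tested probes, 389 were above background on all arrays. Of the 7 probes of the intestinal markers miR-192, miR-194 and miR-215, 0 were. Markers of other tissues were above background on all arrays for 4 of 10 neural probes, 2 of 10 fibroblast and smooth muscle probes, 1 of 10 haematopoietic, 1 of 14 muscle, 1 of 2 liver and 1 of 2 endothelial probes. The mean haematopoietic signal was 6.31 to 6.38 in variant 2, 6.43 to 6.62 in variant 1 and 6.10 to 6.21 in mock, with 6 of its 10 probes above background on no array. Variant arrays also lay above mock in the mean of the liver probes (8.35 to 8.37 in variant 2, 8.72 to 8.74 in variant 1, 7.38 to 8.21 in mock) and of the muscle probes (6.69 to 6.89 in variant 2, 6.58 to 6.61 in variant 1, 6.54 to 6.56 in mock). They lay below mock in the mean of the neural probes (8.01 to 8.25 in variant 2, 8.13 to 8.17 in variant 1, 8.28 to 8.32 in mock) and of the fibroblast and smooth muscle probes (6.53 to 6.81 in variant 2, 6.49 to 6.82 in variant 1, 6.84 to 6.88 in mock). The other lists overlapped mock. Intestinal means were 6.09 to 6.38 in variant 2, 5.75 to 6.54 in variant 1 and 6.01 to 6.3 in mock. In that order, other epithelial means were 7.27 to 7.85, 7.53 to 7.59 and 7.59 to 7.73. Endothelial means were 7.22 to 7.92, 7.82 to 8.16 and 7.28 to 7.43. Of single tested probes, 6.54% had all variant arrays above mock and 6.71% had them below. These directions are relative to the array as a whole, and the part of these lists in the family's values was not tested.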

How the data were processed

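The members and lists were chosen with earlier results of these data known. Per the labels, total RNA was Trizol-extracted, DNase-treated and labelled with biotinylated random octamers, with 1 sample per 1-colour array. The deposited values are log2 signals already normalized by the authors; the log base is read from array maxima of 15.994, near the ceiling of a scanner. The submitters' processing notes name limma; how background was corrected and how arrays were normalized is not given in the sources used here, nor is a build. All 6 columns were matched by identifier. Of 2997 probes, 1773 (1741 human miRNA, 32 ultraconserved-region) were fitted with limma 3.58.1 in R 4.3.3, with 1 mean per group, 3 residual and 5.71 prior degrees of freedom, two-sided tests, Benjamini-Hochberg adjustment and a threshold of 0.05. The fit was tested on simulated data. No probe was removed for low signal, and the number of arrays limits the precision. Mouse-named probes came from a fit to all 2997 probes. A bound takes, for the dimmer group, the lowest signal above background per array, and leaves out the scatter between arrays. Named probes were all members, for each member above background the 3 most correlated probes, and the 2 smallest p of each comparison list. Sequences are from RefSeq (GRCh38.p14): 8 mature strands and 4 hairpins matched. Alternatives changed the variance prior, filter, probe set, scaling, groups fitted and arrays.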

Additional observations from a re-analysis of the deposited data

Results flagged for a closer look

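In hsa-miR-200c, variant 2 replicate 2 read 9.83, apart from the other 3 variant arrays, with a gap of 0.874 of their whole range. Such a gap is expected by chance in about 1 of 20 groups drawn from 1 population, and 10 groups of 4 arrays were examined. Each group pooled the arrays of both variants, so that rate is only a rough guide here. The mouse-named miR-200c probe was also lowest on that array, at 9.67.

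The hsa-miR-200c* probe was above mock on both variant 2 arrays and below mock on both variant 1 arrays. Taken singly, 16.4% of tested probes did the first and 17.3% the second. Only 1 of the 6 arrays, variant 2 replicate 2, was above background, so no fold is given. The measured signals differed by 0.72 on the log2 scale for variant 2 against variant 1 (SE 0.364, limma adjusted p 0.924), a description of signals near the random-sequence level. The mouse-named miR-200c* probe gave -0.56 (SE 0.609) for the same difference.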

How the results depend on the processing

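No family probe passed the threshold under any alternative, over 40 differences and 614 alternative values. The number of probes called stayed at 0 except with a trended prior, which called 1 for both variants, hsa-miR-1260b, no member of the family and named here after its values were seen (log2 difference 1.65, limma adjusted p 0.0469, against 0.975 with the plain prior). No paired analysis was possible because replicate numbers follow the order of deposit. Shifting arrays to the snoRNA probes moved the family median to 0.43 for both variants, 0.28 for variant 2 and 0.45 for variant 1. With both arrays that stood apart left out, a choice made after seeing the data, the variant 2 median was -0.021. With 1 array left out, the median ran from -0.19 to 0.08 for both variants, -0.31 to -0.07 for variant 2, -0.12 to 0.12 for variant 1 and -0.35 to 0.18 for variant 2 against variant 1.

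The snoRNA shift reversed 14 single differences. For both variants it gave 0.38 for hsa-miR-200a*, 0.19 for hsa-miR-200b, 0.51 for hsa-miR-200c, 0.26 for hsa-miR-429 and 0.48 for hsa-mir-429-P. For variant 2 it gave 0.072 for hsa-miR-200a, 0.13 for hsa-miR-200a*, 0.091 for hsa-miR-200b, 0.43 for hsa-miR-200b* and 0.42 for hsa-miR-200c. For variant 1 it gave 0.29 for hsa-miR-200b, 0.31 for hsa-miR-200c* and 0.16 for hsa-mir-429-P, and between variants 0.024 for hsa-miR-141. The shift adds about the same amount to every probe by construction.

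Without both arrays that stood apart, 8 differences reversed. For both variants they were hsa-miR-200b at 0.047 and hsa-miR-200b* at -0.11. For variant 2 they were hsa-miR-200a at 0.026 and hsa-miR-200b at 0.013. The lowest values of these 3 with 1 array left out were -0.653, -0.995 and -0.792, for hsa-miR-200b in both variants and for hsa-miR-200a and hsa-miR-200b in variant 2. For variant 1 they were hsa-miR-200b at 0.08, hsa-miR-200c at -0.004 and hsa-miR-429 at -0.49, and between variants hsa-miR-141 at 0.60.

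Leaving out 1 array reversed 25 values. For both variants the ranges were -0.53 to 0.20 for hsa-miR-200a*, -0.14 to 0.17 for hsa-miR-200b*, -0.14 to 0.072 for hsa-miR-200c, -0.62 to 0.49 for hsa-mir-429-P and -0.86 to 0.30 for hsa-miR-429. For variant 2 they were -0.37 to 0.046 for hsa-miR-200c and -0.34 to 0.77 for hsa-mir-429-P. For variant 1 they were -0.59 to 0.86 for hsa-miR-200a*, -0.56 to 0.13 for hsa-miR-200b, -0.006 to 0.39 for hsa-miR-200b*, -0.004 to 0.20 for hsa-miR-200c, -0.90 to 0.21 for hsa-mir-429-P and -0.49 to 0.66 for hsa-miR-429. Between variants they were -0.71 to 0.60 for hsa-miR-141, -1.32 to 0.13 for hsa-miR-200a* and -0.62 to 0.066 for hsa-miR-200b. Where an array was left out, the lone array of its group was assumed to vary like the other groups. The cause of these reversals was not tested. Signals near the random-sequence level limit 7 of the 10 probes. The hsa-miR-429 probe, above that level on all arrays, cleared it by as little as 0.324. The smallest margins of hsa-miR-200b and hsa-miR-200c were 2.06 and 2.98.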
